A study of Isodiametra pulchra with 2 samples.

Results

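The 30 largest multi-gene components of the *Isodiametra pulchra* transcript assembly were described across single cells of hatchlings. Each feature counted by the study is an assembled gene, and its identifier gives the assembly number first, then the component, then the number of the gene, as in DN32435_c0_g16 (the prefix common to all identifiers is left out here). Features were grouped by the text before the gene number, and components were ranked by how many features the deposited list holds for them, with ties taken by order of first appearance. The ranking used no measured value. It gave 237 features in 30 components, of 23786 listed features in 14912 components. Of all components, 5334 listed more than 1 feature and together held 14208 features, and 9578 listed a single feature.

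*Isodiametra pulchra* is a small marine acoel worm. A de novo assembler such as Trinity splits reads into graph components by shared sequence and divides each component into what it takes to be genes, so that features of 1 component can be close paralogs, alleles, splice forms, or fragments of a single transcript, or genes joined only by a shared repeat. A component is therefore a statement about sequence, and gives no function. The files pair the identifiers with no gene name, so no role is stated for any feature, and no sequence of them was at hand to be shown. Reads that match several features of a component cannot be placed with certainty, and how the counting treated such reads is not given in the sources used here. Every level and every co-detection value below carries that uncertainty.

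The study deposited 2 droplet libraries of wild-type hatchlings, named library 1 and library 2 for the run numbers in the labels, and both form 1 group, so there is no contrast between conditions. The labels describe worms reared on diatoms, dissociation with collagenase and capture of polyadenylated RNA by 3′ droplet chemistry of 10x Genomics, for which kit versions 2 and 3 are both named. The number of animals or cultures is not given, and the libraries may be technical repeats. The barcode lists of the libraries differ in length, and kit and library cannot be told apart.

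Library 1 held 6581711 unique molecular identifiers (UMIs, 1 for each captured RNA molecule) and library 2 held 34060611. A barcode was called as a cell above a minimum UMI total set for each library, which gave 4483 barcodes with a median of 288 UMIs and 3275 with a median of 1520 UMIs. Called barcodes held 26.1% and 20.6% of the UMIs of libraries 1 and 2, and the libraries shared 0 called barcode sequences. The libraries also differed in makeup. Of 27 clusters built without any feature of the 30 components, cluster 1 held 27.4% of called barcodes in library 1 and 2.96% in library 2, cluster 2 held 3.95% and 19.8%, and cluster 6 held 2 barcodes and 418 barcodes. All values are therefore given for each library.

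The largest component, DN32435_c0, listed 12 features. DN25625_c3, DN30818_c2 and DN31288_c0 listed 10 each, and DN22019_c0, DN22275_c3, DN25446_c5, DN27976_c2 and DN31105_c0 listed 9 each. DN28347_c1, DN30968_c1 and DN31633_c1 listed 8 each, and the other 18 listed 7 each: DN23687_c1, DN23908_c2, DN24504_c1, DN24520_c0, DN24549_c0, DN25173_c0, DN26340_c0, DN26985_c1, DN27565_c0, DN28191_c1, DN28949_c0, DN29551_c0, DN29717_c1, DN30561_c0, DN30804_c1, DN31032_c3, DN31139_c1 and DN31425_c1. The limit fell within a tie. Of 27 components with 7 features, 18 were taken, the last being DN31425_c1, and 9 were left out, the first being DN31612_c0. Another 73 components listed 6 features. Gene numbers were skipped in 28 of the 30 components, with up to 7 numbers below the highest one absent from the list, and the highest gene number was 17. The listed features are thus not all the genes the assembler numbered.

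Nearly all features of the large components were found in the cells of at least 1 library (230 of 237). Most listed features were too (21498 of 23786). At least 1 UMI in called barcodes was found for 209 of the 237 features in library 1 (88.2%) and 228 in library 2 (96.2%). Over all listed features the shares were 77.6% and 89.5%. In both libraries 207 of the 237 were found, against 76.7% of all listed features. The 207 make up 87.3% of the 237. Library 2 alone had 21 of them and library 1 alone had 2. The remaining 7 had no UMI in called barcodes, which allows a share of called barcodes with a UMI of up to 0.0669% in library 1 and 0.0916% in library 2 (3 counts of the total, for counting error only). DN22019_c0_g11 and DN23687_c1_g11 had no UMI in any barcode, and DN23908_c2_g6, DN25625_c3_g6, DN28949_c0_g7, DN31105_c0_g1 and DN31139_c1_g9 had UMIs in uncalled barcodes only.

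Most of the 237 were found in few cells, but in more cells than the typical listed feature. Their median was 49 barcodes in library 1 and 133 in library 2, against 9 and 44.5 over all listed features. The median was higher for features of components that listed more of them. Features alone in their component had a median of 7 and 38 barcodes in libraries 1 and 2, those of components of 5 or 6 features had 17 and 59.5, and those of the 9 components left out at the limit had 46 and 133, much like the 237. With each called barcode thinned to the calling minimum of library 1, the median share of barcodes with a UMI was 0.491% and 0.305% for the 237 in libraries 1 and 2, against 0.0892% and 0.122% over all listed features. A share of at least 5% of called barcodes was reached by 31 of the 237 in library 1 and by 98 in library 2, and a share of at least 10% by 6 and 39. Over all 23786 listed features, 1318 and 6177 reached 5%, and 324 and 2699 reached 10%.

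The 237 features took 1.43% of the UMIs of called barcodes in library 1 and 0.782% in library 2. Droplets around the most common total, which hold free RNA and no called cell, gave 1.48% and 0.895% for the same features. Among the 183 features with at least 20 UMIs over both libraries, the median log2 ratio of the level in called barcodes to that in such empty droplets (CPM, UMIs scaled to a total of 1000000 per library, with 0.5 added) was 0.016 in library 1 and -0.03 in library 2, against 0.10 and 0.38 over 16009 listed features. For the median feature, then, a UMI in a called barcode was about as frequent, relative to all UMIs, as a UMI in an empty droplet. A share of barcodes with a UMI thus does not by itself show expression in those cells. At least 2-fold more in called barcodes than in empty droplets of both libraries was seen for 14 of the 183 (7.65%), against 11.9% of the listed features, and at least 2-fold less for 0, against 0.369% of the listed features. DN28191_c1 held 4 of the 14 among its 5 features with 20 UMIs. Its feature DN28191_c1_g5 stood at 36.1 CPM in called barcodes and 5.66 CPM in empty droplets of library 1, and at 20.0 CPM and 2.30 CPM in library 2. DN23908_c2 held 3 of the 14, DN22275_c3 and DN27976_c2 held 2 each, and DN24520_c0, DN25446_c5 and DN31032_c3 held 1 each.

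Levels are given below as CPM, the UMIs of a feature scaled to a total of 1000000 UMIs over all called barcodes of a library. A UMI counts a molecule captured at its 3′ end, so the values are not scaled to transcript length. Summed over its features, a component reached between 16.3 and 1651 CPM in library 1 and between 20.4 and 723 CPM in library 2. Within a component the UMIs were spread unevenly. The top feature took a median of 42.9% of its component's UMIs in library 1 (20.8 to 75.4%) and 42.5% in library 2 (18.6 to 83.4%), and a median of 4 features was enough for 90% of the UMIs in each library. The top feature was the same in both libraries in 17 of the 30 components. All listed features of a component were detected in 13 components in library 1, in 22 in library 2, and in 12 in both.

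**Figure D1:**
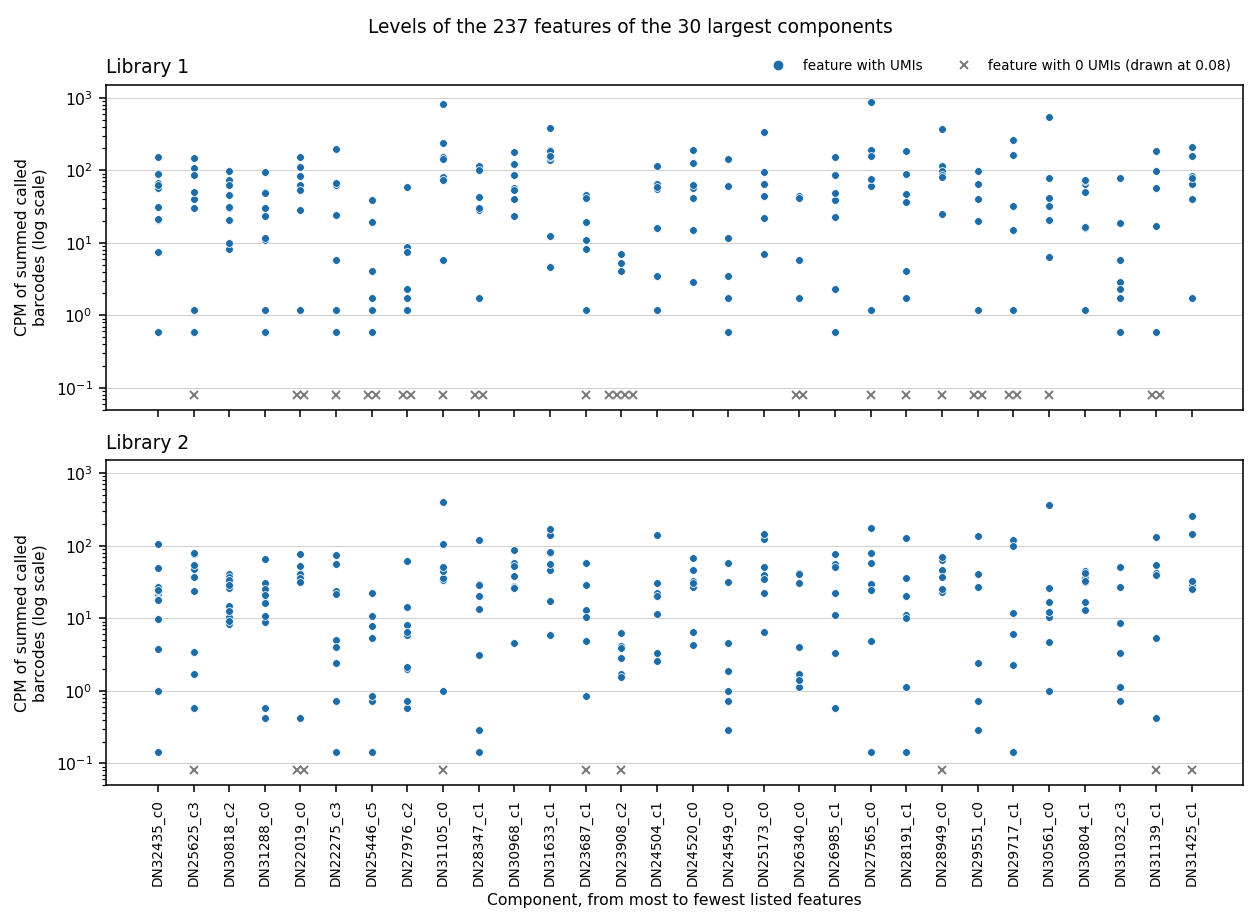
Level of each of the 237 features (points, CPM on a log axis) in the 30 components, for library 1 (top) and library 2 (bottom), with features without a UMI in called barcodes as crosses at the foot of the axis. Within most components the levels spread over more than a factor of 10, and the crosses are fewer in library 2, where 228 features had a UMI, than in library 1, where 209 had one.

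Components and their leading features are ranked next by the mean CPM of both libraries. In 5 of the 10 components with the highest mean, the leading feature by mean was the top feature in each library, and in the other 5 it was the top feature in 1 library only. The component with the highest mean was DN31105_c0, and its leading feature, DN31105_c0_g3, was found in more barcodes than any other of the 237. It had 1385 UMIs in 1055 barcodes (23.5%) of library 1 and 2831 UMIs in 1437 barcodes (43.9%) of library 2, or 807 CPM and 404 CPM. Empty droplets held more of it, at 1020 CPM and 711 CPM. DN31633_c1_g10 led the second component by mean, with 387 and 140 CPM in libraries 1 and 2, and took 31.4% and 23.5% of its component's UMIs. In library 2 DN31633_c1_g4 stood above it, at 168 CPM. DN27565_c0_g3 led the third in each library, at 883 and 176 CPM.

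DN30561_c0_g10 was the most dominant feature of its component, with 75.4% of the UMIs of DN30561_c0 in library 1 and 83.4% in library 2, at 547 and 360 CPM. In DN31425_c1 the top feature changed. DN31425_c1_g2 took 25.0% of the component's UMIs in library 1, at 159 CPM, and 50.1% in library 2, at 259 CPM, whereas DN31425_c1_g9 was the top feature in library 1, at 210 CPM, and had 147 CPM in library 2. The features with the highest mean in the next components, DN25173_c0_g1, DN28949_c0_g5, DN30968_c1_g6, DN32435_c0_g16 and DN25625_c3_g1, had between 147 and 370 CPM in library 1 and between 52.1 and 125 CPM in library 2. Each was the top feature of its component in library 1. In library 2 DN25173_c0_g2 stood above DN25173_c0_g1, at 146 CPM, DN30968_c1_g1 above DN30968_c1_g6, at 87.2 CPM, and DN25625_c3_g3 above DN25625_c3_g1, at 78.2 CPM.

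The order of levels was shared by the libraries (Spearman's rho of CPM 0.913 across the 237 features, against 0.881 across all listed features, both across genes, which are not independent replicates). The median log2 ratio of library 2 to library 1 was -0.74 for the 183 features with at least 20 UMIs, against -0.23 for the 16009 listed features with as many. A difference of at least 4-fold was seen for 15 of the 183 (8.20%), against 18.5% of listed features. Of these, 5 were higher in library 2 and 10 were higher in library 1, while over the listed features 1980 were higher in library 2 and 974 in library 1.

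The features higher in library 2 were nearly absent from library 1. DN30804_c1_g3 had 252 UMIs in library 2 and 2 UMIs in library 1, DN26985_c1_g2 had 77 and 1, DN27976_c2_g6 had 100 and 4, DN31139_c1_g11 had 38 and 1, and DN23908_c2_g4 had 29 and 0. The other features of DN30804_c1 showed no such gap. DN30804_c1_g1, for example, had 314 UMIs in library 2 and 112 in library 1. The features higher in library 1 included abundant ones. DN27565_c0_g3 stood at 176 CPM in library 2 and 883 CPM in library 1 (ratio 0.199, 95% interval for counting error 0.184 to 0.215), and DN28949_c0_g5 at 68.8 CPM in library 2 and 370 CPM in library 1 (ratio 0.186, interval 0.165 to 0.210). With 1 library of each kind these are differences between libraries, with no replicate check.

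In a given barcode a feature was mostly seen as a single molecule, as was the case over the whole list: the median number of UMIs per barcode with the feature was 1.03 in library 1 and 1.10 in library 2 for the 237, against 1.02 and 1.10 over all listed features. Among the 159 features found in at least 10 barcodes of each library, a median of 96.3% of the barcodes with the feature had exactly 1 UMI of it in library 1 and 88.8% in library 2. Of the 237, 8 had any barcode with at least 10 UMIs. Neither these shares nor this count were taken over all listed features, so they cannot be called high or low. DN27565_c0_g3 was the 1 of the 8 that had such barcodes in both libraries. It had 1515 UMIs in 612 barcodes of library 1, where 137 barcodes with at least 3 UMIs held 64.7% of its UMIs and the highest held 53. In library 2 it had 1231 UMIs in 405 barcodes, of which 67 with at least 3 UMIs held 67.4%, and the highest held 142. DN30804_c1_g3 was more concentrated still, in library 2 only: 6 of 27 barcodes held 229 of its 252 UMIs, and the highest held 56.

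Whether features of 1 component occur in the same cells was measured by co-detection. For each pair of features the number of called barcodes with both was divided by the number expected if each feature were placed independently of the other, with a chance of detection that follows the UMI total of the barcode. A ratio of 1 is independence. A pair was counted as together at a ratio of at least 2 in both libraries and as apart at 0.5 or less in both, and pairs with under 3 expected barcodes in a library were left out. Barcodes are not replicates, so no p-value is given, and the exact Poisson intervals cover counting error only. Of the 843 pairs that the 30 components list, 211 in 24 components had enough expected barcodes (25.0%).

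In the median and in sum, pairs of features of the large components were placed close to independently. Single pairs departed from this, mostly in library 2, as given below. The median ratio over the 211 pairs was 0.996 in library 1 and 1.10 in library 2, against 0.961 and 1.02 over 1662 pairs within all components, and 0.957 and 1.06 over 6175 pairs of the same features taken from different components. Summed over pairs, 2731 co-detections were observed and 2672 expected in library 1 (ratio 1.02), and 10510 observed and 9850 expected in library 2 (ratio 1.07). Pairs from different components had summed ratios of 0.987 and 1.05.

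No pair of the 211 was together in both libraries by the 2-fold limit, against 0.903% of pairs within all components (15 of 1662) and 0.0% of pairs from different components (0 of 6175). Taken singly, library 1 had 4 of the 211 at the limit and library 2 had 1, against 57 and 24 of the 1662 and 56 and 6 of the 6175. One pair was apart in both, 0.474% of the 211, against 0.301% within all components and 0.162% from different components. It was DN26985_c1_g3 with DN26985_c1_g7, seen together in 1 barcode of library 1 where 3.23 were expected and in 2 barcodes of library 2 where 4.32 were expected. Taken singly, library 1 had 17 of the 211 apart and library 2 had 3, against 150 and 30 of the 1662 and 591 and 79 of the 6175. For the pair of DN26985_c1 both intervals include 1 (0.00784 to 1.72 and 0.0561 to 1.67), so at this depth the call could not be told from independence.

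**Figure D2:**
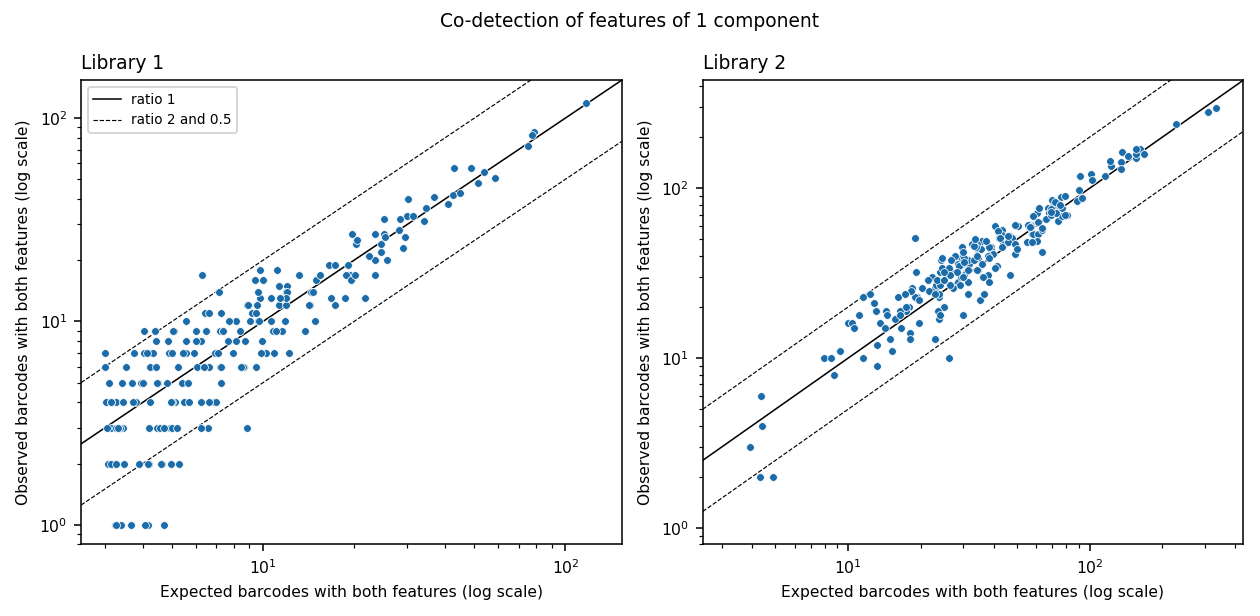
Observed against expected number of called barcodes with both features for the 211 pairs of 1 component (points, log axes), in library 1 (left) and library 2 (right), with lines at ratios of 2, 1 and 0.5. Points follow the line of ratio 1 in both libraries, and the point farthest above it in library 2 is DN25173_c0_g4 with DN25173_c0_g6, at 51 observed and 19.0 expected.

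By the counting intervals instead of the 2-fold limit, 2 of the 211 pairs lay above 1 in both libraries (0.948%, against 2.23% within all components and 0.146% from different components), and 0 lay below 1 in both (against 0.361% and 0.113%). The pairs above 1 were DN28191_c1_g2 with DN28191_c1_g5, at 2.70 in library 1 (1.58 to 4.33) and 1.35 in library 2 (1.02 to 1.75), and DN31633_c1_g9 with DN31633_c1_g10, at 1.34 (1.01 to 1.73) and 1.21 (1.00 to 1.44). These features of DN28191_c1 are also among those enriched in called barcodes over empty droplets. In library 1 alone, 5 of the 211 intervals lay above 1 and 1 below. The counts were 73 and 28 of the 1662, and 71 and 80 of the 6175. In library 2 alone, 24 of the 211 lay above 1 and 7 below. There the counts were 139 and 119 of the 1662, and 555 and 234 of the 6175. The median expected number was 7.23 barcodes in library 1 and 33.5 in library 2, so library 1 limits the counts in both.

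Ranked by the lower of their ratios over the libraries, the highest pairs belonged to 4 components. DN32435_c0_g13 and DN32435_c0_g17 shared 7 barcodes in library 1, where 3.73 were expected, and 24 in library 2, where 12.4 were expected (ratios 1.88 and 1.94). DN25173_c0_g4 and DN25173_c0_g6 shared 9 against 5.04 expected in library 1 and 51 against 19.0 in library 2, where the ratio was 2.68 (1.998 to 3.53). DN32435_c0_g4 with DN32435_c0_g15 had ratios of 1.81 and 1.67, DN30818_c2_g1 with DN30818_c2_g6 had 1.71 and 1.57, and DN22019_c0_g4 with DN22019_c0_g6 had 1.44 and 1.59. In library 1 the interval of each of these 5 pairs included 1, while in library 2 each lay above 1.

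At the other end, after the pair of DN26985_c1, came DN30804_c1_g7 with DN30804_c1_g8 at 0.272 and 0.569, DN28347_c1_g3 with DN28347_c1_g5 at 0.213 and 0.626, DN30561_c0_g3 with DN30561_c0_g10 at 0.709 and 0.656, and DN28347_c1_g2 with DN28347_c1_g3 at 0.617 and 0.718. The second of these was seen together in 1 barcode of library 1, where 4.70 were expected, and in 22 barcodes of library 2, where 35.2 were expected. Taken over all pairs of a component, the 22 components with at least 20 expected co-detections in each library had ratios between 0.765 and 1.40 in library 1 and between 0.853 and 1.34 in library 2, with 7 above 1 in both and 5 below 1 in both. DN32435_c0 was above, at 1.24 and 1.34, and DN25173_c0 below, at 0.832 and 0.923. These counts were not taken over other components, so they cannot be called high or low.

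Within a barcode, molecules of 1 component were more often of the same feature than the mix of the whole library would give, though in the median component most were still of different features. This was measured on pairs of UMIs from 1 barcode and 1 component, as the share of pairs that are of the same feature over the share expected from the component's summed composition. A ratio of 1 means that features are mixed within barcodes as in the library. A higher ratio arises where features replace one another between barcodes, and also where 1 feature is at high copy in some barcodes while the others are placed as before, and the ratio does not separate these. Of 23 components with at least 50 UMI pairs in each library, 22 had a ratio above 1 in both, against 77.2% of 839 components with more than 1 feature, and 6 reached 1.5 in both, against 10.7%. The median ratio over the 23 was 1.36 in library 1 and 1.41 in library 2. Over all 839 it was 1.11 and 1.17, and over 119 components of 5 or 6 features it was 1.31 and 1.33. The ratio is bounded by the expected share, which is high in components of few features, so the medians of components of other sizes are not on equal terms. Set against the room left above the expected share, the order was the other way round. The excess over expectation, as a percentage of the largest excess possible, had a median of 12.7% in library 1 and 15.4% in library 2 for the 23 components, against 33.1% and 34.8% for 564 components with an expected share of up to 90%, and 30.1% and 26.1% for 108 such components of 5 or 6 features. The same-feature pattern was therefore not particular to the large components. In absolute terms, a median of 36.9% of UMI pairs of the 23 components were of the same feature in library 1, where the median expected share was 26.4%, and 42.0% in library 2, where it was 25.1%.

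**Figure D3:**
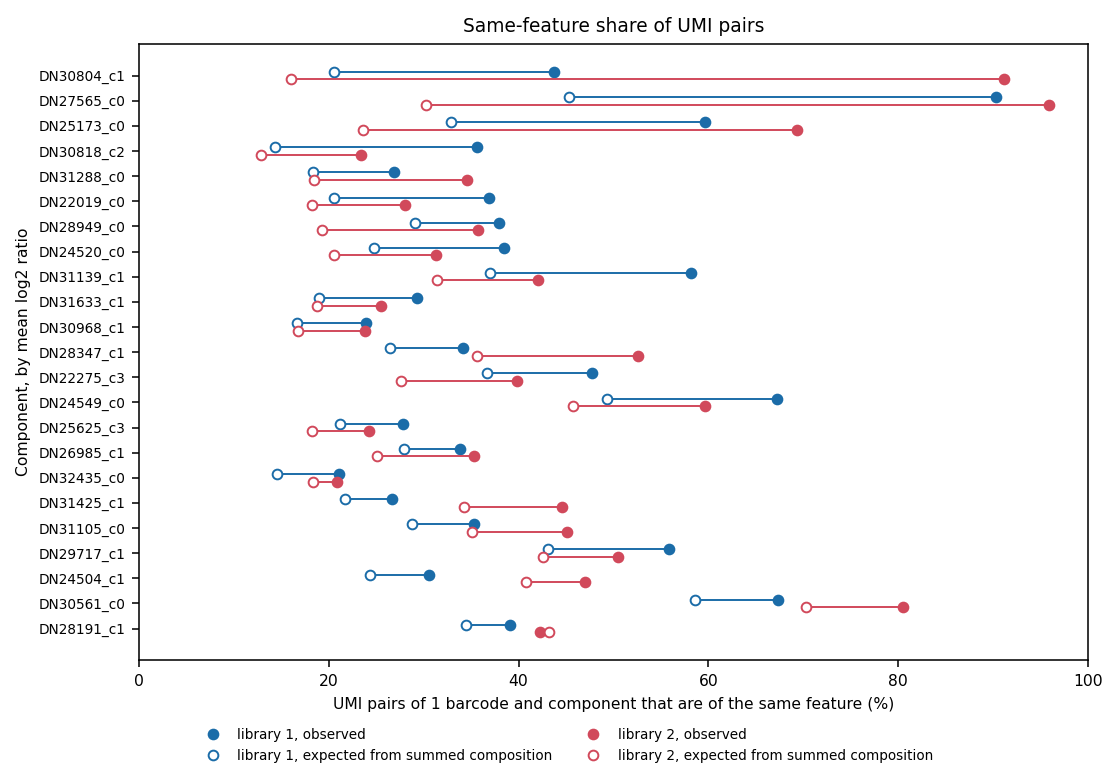
Share of UMI pairs of 1 barcode and component that were of the same feature (filled circles) and the share expected from the summed composition (open circles), in percent, for the 23 components with at least 50 UMI pairs in each library, in blue for library 1 and red for library 2. The filled circle lies right of the open one in both libraries for every component but DN28191_c1, which falls below it in library 2 (ratio 0.980).

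Ranked by the mean of the log2 ratios of both libraries, DN30804_c1 came first. It had 2.13 in library 1, from 64 UMI pairs, and 5.67 in library 2, from 5321 pairs of which 1 barcode gave 28.9%. In library 2, 6 barcodes held 229 of the 252 UMIs of its feature DN30804_c1_g3. Those 6 barcodes gave most of the UMI pairs, so the ratio there rests on few barcodes. DN27565_c0 had 1.99 and 3.17, with 90.3% and 95.9% of UMI pairs of the same feature where 45.3% and 30.2% were expected, and 1 barcode gave 20.9% and 40.1% of the pairs. Its high-copy feature DN27565_c0_g3 was co-detected with DN27565_c0_g6 at 1.17 times the expected number in library 1 and 0.664 in library 2, with DN27565_c0_g8 at 1.07 and 0.601, with DN27565_c0_g2 at 0.992 and 0.963, and with DN27565_c0_g1 at 0.875 and 0.872. DN25173_c0 had 1.82 and 2.94, with 14.8% and 22.3% of the pairs from 1 barcode. In library 1 alone the highest ratio was that of DN30818_c2, at 2.48, which had 1.82 in library 2. By the same mean the lowest were DN28191_c1 at 1.13 and 0.980, DN30561_c0 at 1.15 and 1.15, and DN24504_c1 at 1.26 and 1.15, and within a single library other components lay below DN24504_c1. With each barcode counted once, so that barcodes with many UMIs weigh no more than others, the median over components and libraries was 1.40, against 1.38 with every UMI pair counted.

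The measures thus gave different pictures of the same barcodes. Summed over pairs, features were detected in the same barcodes about as often as independent features would be. Molecules of a component in 1 barcode were of the same feature more often than expected. Of the barcodes with at least 2 UMIs of a component, a median over components of 62.3% in library 1 and 67.9% in library 2 held at least 2 of its features, and up to 7 and 9 features of 1 component were found in a single barcode.

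Differences between groups of cells were tested on clusters made from 2000 variable features, none of them of the 30 components. UMIs were summed per library and cluster over 22 clusters with at least 20 barcodes in each library, which hold 97.8% of called barcodes of library 1 and 85.6% of library 2. edgeR's quasi-likelihood F-test over clusters, with library as a block, was run on all features outside the 2000 that passed its filter on low counts, with Benjamini-Hochberg adjustment over all 5541. Clusters are called by number, since no marker genes could be matched to the identifiers. Of the 237 features, 95 passed the filter and 142 were not tested. A feature that passes through a single cluster where it is high had to differ. The counts are also given by level, but a split by level does not remove this.

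Of the 95 tested features, 16 differed among clusters (adjusted p under 0.05), against 47.9% of all tested features (2656 of 5541). The 16 make up 16.8% of the 95, and at an unadjusted p under 0.05 there were 22. The gap was present within classes of total UMIs, though features of 1 class can have passed the filter in different ways. Among features with over 200 and up to 500 UMIs 10 of 54 differed, against 43.4%, and among those with over 500 UMIs 5 of 38 differed, against 44.6%. Of the 3 with fewer UMIs 1 differed, against 81.1%. The median level of tested features was 415 UMIs in the 30 components and 438 UMIs overall. The difference between these shares was not itself tested. With no low-count filter the shares were 13.5% of 229 features of the 30 components and 28.1% of all 19419 tested. The background had also lost the 2000 most variable features to the clustering, while no feature of the 30 components was taken out. As given above, the features of the 30 components with at least 20 UMIs were, in the median, near their level in empty droplets. Whether this is related to the shares here was not tested.

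**Figure D4:**
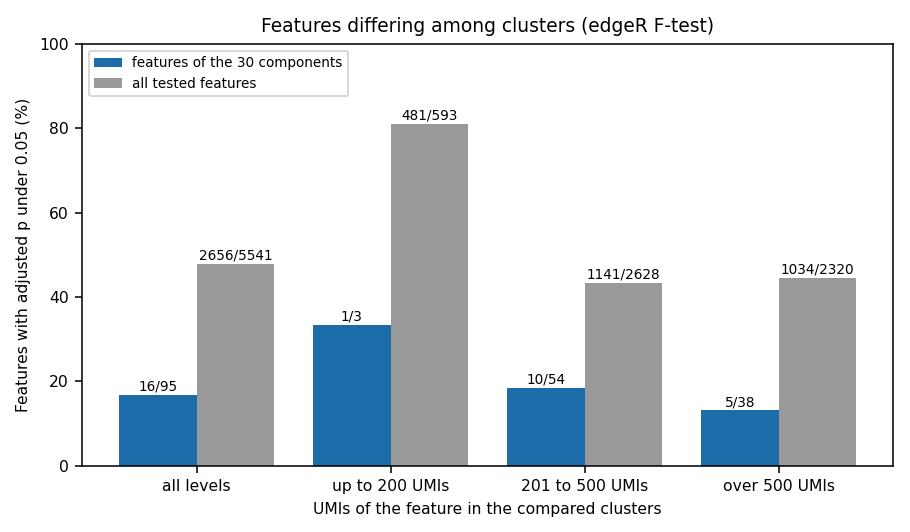
Share of tested features that differed among clusters (edgeR F-test, adjusted p under 0.05, in percent), in features of the 30 components (blue) and in all tested features (grey), overall and by the UMIs of the feature in the compared clusters, with called over tested above each bar. The blue bar is below the grey one in every class, at 16.8% against 47.9% overall.

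The 16 features lay in 11 of the 27 components with a tested feature. DN25173_c0 had 4 of its 5 tested features among them and DN30804_c1 had 3 of 5, while 9 components had 1 each. The 3 of DN30804_c1 include DN30804_c1_g3, which had 2 UMIs in library 1. It passed the low-count filter through clusters of library 2 where it was high, so its call adds nothing from library 1. The cluster with the highest level was the same in both libraries for 6 of the 16, against 47.6% of all features that differed.

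In each library DN25173_c0_g2, DN25173_c0_g4 and DN25173_c0_g6 peaked in different clusters from one another. DN25173_c0_g4 (adjusted p = 3.33e-20) was high in clusters 5, 11, 13 and 19, with 457, 314, 461 and 387 CPM in library 1 and 342, 529, 281 and 501 CPM in library 2. Its next highest cluster, 17, had 82.9 and 105 CPM. DN25173_c0_g6 (adjusted p = 1.12e-17) was highest in cluster 17, at 560 CPM in library 1 and 564 CPM in library 2, and stood at 240 and 235 CPM in cluster 5 and at 243 and 212 CPM in cluster 11. These are the features that shared 51 barcodes in library 2. Both libraries thus place DN25173_c0_g4 and DN25173_c0_g6 in overlapping sets of clusters with different peaks.

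DN25173_c0_g2 (adjusted p = 1.01e-15) followed another pattern. It had 993 CPM in cluster 4 of library 2, from 659 UMIs, and 59.8 CPM in the other clusters of that library together. In library 1 cluster 4 had 197 CPM from 29 of 74 UMIs. Cluster 22 of library 1 stood at 203 CPM, from 2 UMIs. In cluster 4 DN25173_c0_g4 had 13.6 CPM and 15.1 CPM in libraries 1 and 2, and DN25173_c0_g6 had 20.4 and 7.53 CPM. DN25173_c0_g1, the top feature of the component in library 1, also differed among clusters (adjusted p = 0.00658). Its peak lay in cluster 22 of library 1, as for DN25173_c0_g2, and in cluster 17 of library 2, as for DN25173_c0_g6.

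DN27565_c0_g3 (adjusted p = 5.07e-17) was highest in cluster 8 of both libraries, at 3487 CPM in library 1, where the other clusters together stood at 641 CPM, and at 2433 CPM in library 2, where they stood at 107 CPM. Cluster 8 held 524 of its 1499 UMIs in the compared clusters of library 1 and 588 of 1176 in library 2. In library 1 cluster 19 followed at 2386 CPM and cluster 10 at 1573 CPM, and in library 2 cluster 21 followed at 604 CPM and cluster 19 at 406 CPM. The feature was also abundant in empty droplets, at 965 CPM in library 1 and 256 CPM in library 2. DN27565_c0_g6, from the same component, did not pass (adjusted p = 0.112).

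DN30804_c1_g3 (adjusted p = 8.71e-17) was called on library 2 alone, since library 1 had 2 UMIs of it. In library 2 it stood at 471 CPM in cluster 13 and 468 CPM in cluster 20, from 57 and 83 UMIs, and 229 of its UMIs lay in 6 barcodes. A sum over a cluster does not show how few barcodes carry it. DN30804_c1_g7 differed with a peak in cluster 11 of both libraries, at 386 and 296 CPM (adjusted p = 1.27e-10).

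**Figure D5:**
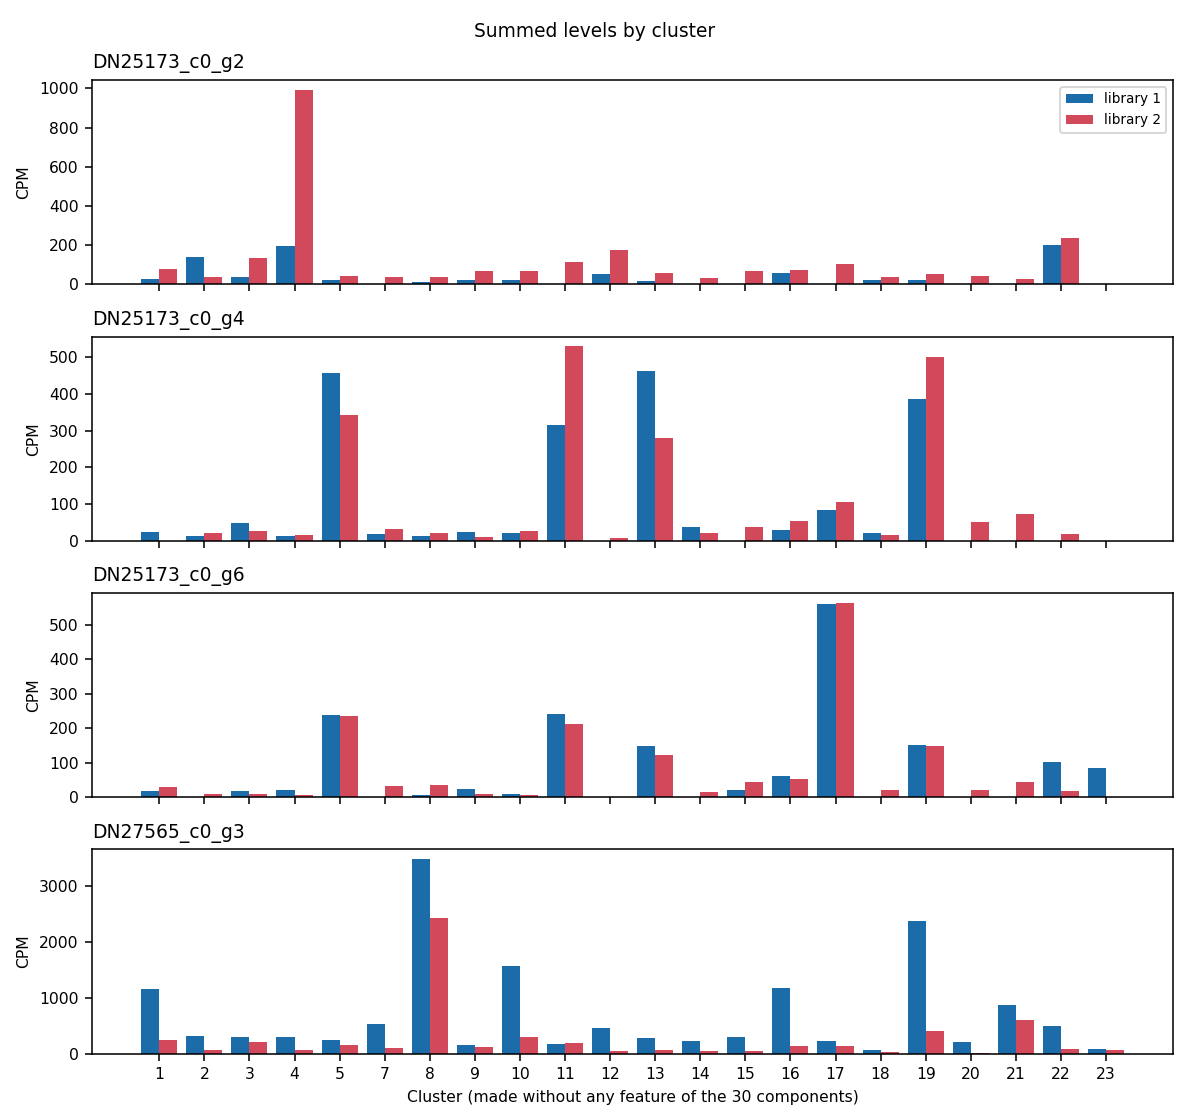
Summed level (CPM, bars) of DN25173_c0_g2, DN25173_c0_g4, DN25173_c0_g6 and DN27565_c0_g3 in each of the 22 compared clusters, in blue for library 1 and red for library 2. The features of DN25173_c0 are high in cluster 4, in clusters 5, 11, 13 and 19, and in cluster 17, while DN27565_c0_g3 is highest in cluster 8 of both libraries, at 3487 and 2433 CPM.

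Among the other features that differed, chosen for mention after their values were seen, DN24549_c0_g4 peaked in cluster 7 of both libraries, at 542 CPM in library 1 and 196 CPM in library 2 (adjusted p = 2.99e-14). DN30561_c0_g2 peaked in cluster 15 of both, at 598 and 189 CPM (adjusted p = 1.94e-12), although DN30561_c0_g10, which took most of that component's UMIs, was not among the 16. DN25446_c5_g6 peaked in cluster 8 of both, at 153 and 128 CPM (adjusted p = 0.00100). Its next highest sum was 91.0 CPM, in cluster 16 of library 1, from 3 UMIs. It passed the low-count filter only through cluster 8, where it is high. Its call and its shared peak thus followed from the filter and are no independent result. DN24504_c1_g7 peaked in cluster 4 of library 1, at 381 CPM, and in cluster 9 of library 2, at 106 CPM (adjusted p = 2.23e-11).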

How the data were processed

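The study measured polyadenylated RNA in single cells of wild-type hatchlings in 2 libraries. As deposited, the values are raw UMI counts for every feature in every barcode, and the submitters' processing notes name Cell Ranger 3.0.2, the software version that the header of the deposited matrix also gives. The matrix pools both libraries and lists every kit barcode, and barcode suffixes were matched to run numbers. The reference and mapping settings are not given in the sources used here, and 0 columns of other samples were present. Precision is limited by depth, and intervals cover counting error only, since barcodes are not independent animals.

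The members and tests were chosen with earlier results of these data known. Called barcodes (at least 166 UMIs in library 1 and 1027 in library 2) were kept whole. Empty droplets were those within 20% of the most common total, 59 UMIs in library 1 and 311 in library 2. Detection chances followed 1 − exp(−a × total), with a fitted per feature. Doublets were kept: the automatic threshold of a doublet score marked 0% and 0.0305% of called barcodes and had not worked, so an alternative removed the 161 and 86 highest scores. Clusters came from scanpy 1.11.5 and leidenalg 0.10.2 (2000 variable features outside the 30 components, 30 principal components, 15 neighbours, resolution 1.0), and summed counts were tested with edgeR 4.0.16 in R 4.3.3, with DESeq2 1.42.0 as an alternative. The scripts were tested on simulated data.

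Named were the 10 components with most features, the top feature of the 10 components with the highest mean CPM, the 5 highest and 5 lowest pairs, the 3 highest and 3 lowest same-feature ratios and the 5 smallest F-test p-values. Features named for the difference between libraries, for enrichment over empty droplets, for concentration in few barcodes or for lack of UMIs were chosen after their values were seen. The alternatives were other barcode minima, thinning, doublet removal, other limits for pairs, another scaling, no low-count filter, no library term, other clusterings, a held-out part of the UMIs, and each library alone.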

Additional observations from a re-analysis of the deposited data

Results flagged for a closer look

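Most UMIs of the 30 components lay outside the called barcodes. Uncalled barcodes held 74.5% of them in library 1 and 81.1% in library 2, data that none of the comparisons of cells use. Over all listed features the share was close to this, at 73.9% and 79.4%. Of the 7 features with no UMI in called barcodes, 5 had UMIs in uncalled barcodes. DN25625_c3_g6, DN31105_c0_g1 and DN31139_c1_g9 had the most, at 4 UMIs each over both libraries. The bound of 3 counts given above is for called barcodes of 1 library and does not apply to these UMIs. No group held 4 or more samples, and there was 1 group, so samples far from their group and effects that differ between groups were not looked for.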

How the results depend on the processing

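The number of features detected in both libraries (207) was between 179 and 206 under 5 alternatives and was 209 to 228 in a single library. The count of pairs together (0) was 1 with doubled minima for calling, 1 with at least 1 expected barcode, 4 at a 1.5-fold limit and 11 when depth was left out of the expected number. The count apart (1) was 0 with at least 500 UMIs in both libraries, 0 after thinning, where 2 pairs were left, 5 with at least 1 expected barcode, 0 with at least 10, 3 at a 1.5-fold limit, 0 at a 3-fold limit and 0 when depth was left out. In a single library, with more pairs to count in library 2 (423) than in library 1 (211), 4 pairs were together in each and 17 to 29 were apart. The median same-feature ratio (1.38) was 1.29 with doubled minima, 1.41 with at least 500 UMIs, 2.45 after thinning, where 1 component was left, 1.45 with at least 500 UMI pairs, where 3 were left, and 1.36 to 1.42 in a single library. Of the tested features, 16 differed among clusters, and this count was 31 of 229 with no low-count filter, 9 of 38 on a held-out part of the UMIs and 29 of 95 by DESeq2's likelihood ratio test. In the main setting each cluster had 1 sum in each library and library was a block, and without that block the count was 10 of 95. In the main setting and all 9 alternatives the share of these features that differed (10.5 to 30.5%) was below that of all tested features (28.1 to 53.2%). The cause of these shifts was not tested. A single library leaves no residual degrees of freedom for the cluster test, which was not run there. Depth limits the pair counts, and 632 of 843 pairs had under 3 expected barcodes in a library.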
